A study of Mus musculus with 16 samples.

Results

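Phagocyte NADPH oxidase genes were followed in the lumbar spinal cord of 150-day-old mice by RNA sequencing. The 7 members were taken by gene symbol from a table of 23284 symbols: Cybb, Cyba, Ncf1, Ncf4, Rac2, Hvcn1 and Nox4. All 7 had enough counts for testing. The study crossed an Atg7 genotype with a SOD1G93A transgene, giving 4 groups of 4 mice: cWT (Atg7 cWT), cKO (Atg7 cKO), cWT_SOD1 (Atg7 cWT with SOD1G93A) and cKO_SOD1 (Atg7 cKO with SOD1G93A). Atg7 encodes an enzyme that autophagosome formation needs, cKO is read here as conditional knockout and cWT as its wild-type counterpart, and SOD1G93A denotes a transgene for mutant human SOD1, with which mice develop a motor neuron disease like amyotrophic lateral sclerosis. The series title places the loss of autophagy in motor neurons, and the labels used here do not name the promoter that drives the deletion.

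The phagocyte oxidase is a membrane enzyme of neutrophils, macrophages and microglia, the resident macrophages of the cord, that moves electrons from cytosolic NADPH to oxygen and so makes superoxide. Its core is a pair of membrane proteins, gp91phox (Cybb) and p22phox (Cyba), which stays idle until cytosolic subunits such as p47phox (Ncf1) and p40phox (Ncf4) join it together with a Rac GTPase. Hvcn1 encodes a proton channel that offsets the charge the oxidase moves. Nox4 encodes a relative of gp91phox that also pairs with p22phox but needs no cytosolic subunits, is known from kidney and vessel wall rather than from phagocytes, and releases mainly hydrogen peroxide.

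Libraries held 14989026 to 20892530 counts. Each group read as 2 males and 2 females from Xist and Y-linked genes. Atg7 (mm9 chromosome 6, 114593119 to 114810632) lay at 26.4 to 28.8 CPM in cKO and at 29.7 to 35.1 CPM in cWT, so these groups did not overlap, but the log2 difference of -0.17 (SE 0.12) did not pass (edgeR adjusted p = 0.9995). In the transgenic pair it ran the other way, at 27.2 ± 4.50 CPM in cKO_SOD1 and 24.1 ± 4.26 CPM in cWT_SOD1 (log2 0.17, adjusted p = 0.220), and was called higher in cKO_SOD1 without cWT_SOD1 replicate 1 (0.30, adjusted p = 0.0212) or cKO_SOD1 replicate 2 (0.29, adjusted p = 0.0211). Atg7 was also called lower in cWT_SOD1 than in cWT (log2 -0.38, SE 0.12, edgeR adjusted p = 0.00839), although these groups overlapped. The Atg7 level of the whole cord does not check the genotype labels. All 6 neuronal markers, among them Chat and Slc5a7 of cholinergic cells such as motor neurons, had counts in every group. All 6 were lower in cWT_SOD1 than in cWT, with sums of 1347 to 2228 against 3819 to 4192 CPM, and 4 of 6 were lower in cKO_SOD1 than in cKO (3235 to 3413 against 3854 to 3967 CPM). All 6 astrocyte markers were higher in cWT_SOD1 than in cWT (18507 to 22949 against 6110 to 6415 CPM), and 2 of 6 in cKO_SOD1 than in cKO (9904 to 10568 against 5944 to 6679 CPM). Of all genes tested, 33.1% were called lower and 33.2% higher in cWT_SOD1 than in cWT. In cKO_SOD1 against cKO these shares were 2.48% and 4.8%. The part of these marker shifts in the member levels was not tested. Among the 4 cWT_SOD1 mice, replicate 1 had the lowest CPM of its group for 5 members and replicate 4 for the other 2, and the highest was always in replicate 2 or 3. In whole tissue, fewer cells of a type and less RNA per cell cannot be told apart.

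Promoter windows, 250 bases before to 50 after the transcription start, were found for 4 of the 7 members (Cybb, Cyba, Ncf1 and Nox4) in RefSeq on GRCm38.p6, which is not the build of the deposited files. They were searched on both strands for GAGGAA, the core of the site of the myeloid factor PU.1, and for TGANTCA, the site of AP-1. Of 32851 such windows, 28.3% held the first and 7.81% the second. The Cybb window held each once, and the other 3 held neither. The windows of Cybb and of its membrane partner Cyba are shown because these genes had the highest folds below. Capitals mark the matches, AP-1 at bases 112 to 118 and the PU.1 core at 260 to 265, where it reads on the reverse strand. A match describes letters only and is not a measured site.
Cybb, chrX:9469275-9469574, minus strand: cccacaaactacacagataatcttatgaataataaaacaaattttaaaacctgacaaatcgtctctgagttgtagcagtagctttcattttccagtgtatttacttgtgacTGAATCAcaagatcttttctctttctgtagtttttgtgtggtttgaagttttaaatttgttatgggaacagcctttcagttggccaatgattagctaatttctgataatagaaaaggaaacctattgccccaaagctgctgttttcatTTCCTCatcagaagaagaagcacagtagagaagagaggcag
Cyba, chr8:122432891-122433190, minus strand: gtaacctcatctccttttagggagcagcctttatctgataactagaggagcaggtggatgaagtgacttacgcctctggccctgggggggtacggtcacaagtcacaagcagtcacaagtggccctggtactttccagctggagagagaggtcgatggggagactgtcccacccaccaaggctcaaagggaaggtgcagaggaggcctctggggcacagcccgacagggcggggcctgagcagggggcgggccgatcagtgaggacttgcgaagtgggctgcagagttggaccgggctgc

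With intact Atg7 the transgene raised the whole set. All 7 members were higher in cWT_SOD1 than in cWT, at 5.44-fold (Hvcn1) to 44.0-fold (Cybb), with a median log2 difference of 3.17 against 0.01 over all 15426 genes tested. For none of the 7 did the groups overlap. The background was broad: 33.2% of all genes tested were called higher and 27.6% had groups that did not overlap upward. Under the Atg7 deletion the same transgene raised 4 of the 7, at 1.51-fold to 3.07-fold, where 4.8% of all genes were called higher. The groups did not overlap for 6 of the 7, where this held upward for 9.91% of all genes. Between the transgenic groups all 7 were lower in cKO_SOD1 than in cWT_SOD1, at 3.23-fold to 8.02-fold, where 29.1% of all genes were called lower.

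The membrane core was led by Cybb (mm9 chromosome X, 9012378 to 9046450), the catalytic subunit. CPM (counts scaled to TMM library size) for replicates 1 to 4 were 1.48, 1.03, 1.17 and 2.33 in cWT and 2.44, 0.849, 4.16 and 3.32 in cKO. They were 41.2, 77, 91.3 and 56.0 in cWT_SOD1 and 7.20, 11.0, 7.22 and 7.66 in cKO_SOD1. The lowest cWT_SOD1 mouse stood above every cKO_SOD1 mouse, and the lowest cKO_SOD1 mouse above every mouse without the transgene. The transgene raised Cybb by a log2 fold change of 5.46 with intact Atg7 (SE 0.34, edgeR adjusted p = 6.24e-10) and by 1.62 under the deletion (SE 0.34, adjusted p = 0.00574). The difference between the transgenic groups was -3.00 (SE 0.28, adjusted p = 1.36e-07). In mice without the transgene Cybb rested on 16 to 75 counts per library.

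Cyba (chromosome 8, 124948671 to 124956840) encodes the partner that stabilises gp91phox and is also made outside phagocytes. It read 3.53, 4.17, 4.0 and 5.04 CPM in cWT and 5.25, 4.24, 4.49 and 4.83 CPM in cKO. In cWT_SOD1 it read 34.1, 68.3, 62.6 and 47.7 CPM, and in cKO_SOD1 10.7, 11.8, 8.62 and 11.4 CPM. The nontransgenic groups overlapped, and each transgenic group stood apart from every other group. The log2 fold change with the transgene was 3.67 with intact Atg7 (SE 0.19, edgeR adjusted p = 6.88e-11), a 12.7-fold rise. Under the deletion it was 1.17 (SE 0.20, adjusted p = 9.59e-04), a 2.25-fold rise.

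The cytosolic subunits rose less than Cybb. Ncf1 (chromosome 5, 134696130 to 134705495) encodes the organiser subunit whose phosphorylation starts assembly. Its CPM were 7.94, 10.3, 6.78 and 8.75 in cWT and 11.6, 8.28, 11.3 and 9.95 in cKO. They were 33.4, 73.4, 77.7 and 56.5 in cWT_SOD1 and 17, 16.1, 12.2 and 15.4 in cKO_SOD1. All cKO_SOD1 mice lay above all cKO mice, yet by little: the gap was from 11.6 to 12.2 CPM. The rise with intact Atg7 was 7.14-fold (log2 2.84, SE 0.22, edgeR adjusted p = 5.14e-09). Under the deletion the log2 difference of 0.56 (SE 0.22) did not pass (adjusted p = 0.141). A fit of the 8 cKO and cKO_SOD1 libraries alone put it past the threshold (adjusted p = 0.00748), as did leaving out cWT_SOD1 replicate 1 (adjusted p = 0.0130).

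Ncf4 (chromosome 15, 78075241 to 78093010), whose product binds a phosphoinositide of the phagosome membrane, was the scarcest cytosolic subunit. Its CPM were 0.358, 0.571, 0.944 and 1.16 in cWT and 1.01, 0.584, 1.05 and 1.07 in cKO, from 7 to 22 counts per library. In cWT_SOD1 they were 6.03, 9.67, 14.2 and 5.77, and in cKO_SOD1 1.46, 1.99, 2.10 and 1.64. The rise with intact Atg7 was 11.8-fold (log2 3.56, SE 0.33, edgeR adjusted p = 5.13e-08). Under the deletion Ncf4 lay at a log2 difference of 0.95 (SE 0.36) that did not pass (adjusted p = 0.132), although no cKO mouse reached a cKO_SOD1 mouse. The fit of these 8 libraries alone called it as well (adjusted p = 0.0116).

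Rac2 (chromosome 15, 78389599 to 78403213) is the Rac GTPase of blood cells, and part of its reads may be shared with its close relatives Rac1 and Rac3. It read 2.36, 1.37, 2.11 and 2.99 CPM in cWT, 2.55, 2.12, 2.72 and 3.56 CPM in cKO, 14.3, 23.0, 22.7 and 20.03 CPM in cWT_SOD1 and 5.33, 4.71, 6.15 and 6.12 CPM in cKO_SOD1. Every transgenic mouse was above every mouse without the transgene. The rise was 9.02-fold with intact Atg7 (log2 3.17, SE 0.20, edgeR adjusted p = 6.22e-10) and 2.03-fold under the deletion (log2 1.02, SE 0.20, adjusted p = 0.00403).

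Hvcn1 (chromosome 5, 122659746 to 122692306), the proton channel, was the steadiest member among the mice of cWT (coefficient of variation 5.72%) and of cKO_SOD1 (5.19%). Its span overlaps that of Tctn1 by 783 bases, and without stated strand the reads there cannot be told apart. Its CPM were 8.50, 9.65, 9.28 and 8.75 in cWT and 8.44, 10.3, 10.8 and 10.8 in cKO. They were 35.2, 59.9, 57.2 and 44.3 in cWT_SOD1 and 15.9, 14.1, 15.2 and 15.8 in cKO_SOD1. The transgenic groups again stood apart from each other and from the rest. Hvcn1 rose 5.44-fold with intact Atg7 (log2 2.44, SE 0.14, edgeR adjusted p = 1.57e-10) and 1.51-fold under the deletion (log2 0.60, SE 0.14, adjusted p = 0.0122). Without cKO replicate 1 the second call was lost (adjusted p = 0.0507).

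Nox4 (chromosome 7, 94395305 to 94547116) had the lowest mean FPKM of the 7 in every group. Its CPM were 1.13, 0.799, 0.722 and 0.831 in cWT and 1.01, 1.38, 1.22 and 1.12 in cKO. They were 3.63, 6.71, 9.52 and 3.32 in cWT_SOD1 and 0.761, 1.78, 1.68 and 0.945 in cKO_SOD1. Only the cWT_SOD1 mice stood apart, and the cKO_SOD1 mice overlapped both nontransgenic groups. The rise with intact Atg7 was 6.63-fold (log2 2.73, SE 0.34, edgeR adjusted p = 1.56e-06). Under the deletion the log2 difference was 0.14 (SE 0.37, adjusted p = 0.871), with an approximate 95% interval of -0.64 to 0.92. Its sign turned without cKO_SOD1 replicate 2 (-0.04) or replicate 3 (-0.01).

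**Figure D1:**
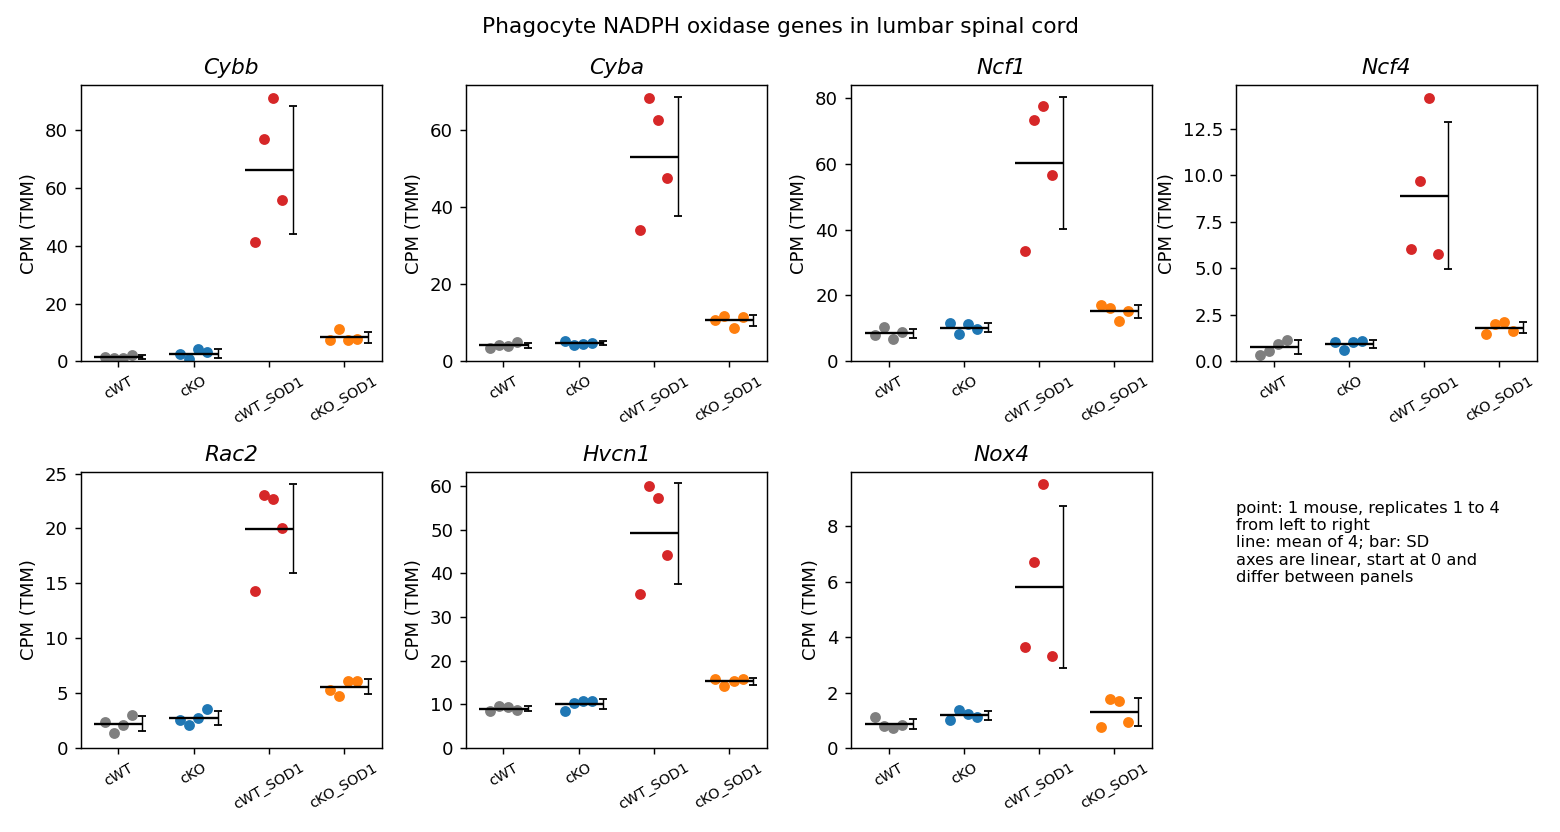
CPM of each oxidase gene (vertical axis, linear from 0, scale differing by panel) in the 4 groups (horizontal axis), with 1 point per mouse, a line at the mean of 4 and a bar for the SD. Every cWT_SOD1 mouse is above all other mice for all 7 genes, and for Nox4 the cKO_SOD1 mice (0.761 to 1.78 CPM) overlap the mice without the transgene.

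The Atg7 deletion alone moved no member past the test. In cKO against cWT edgeR called 0 of 7, with 0 at an unadjusted p under 0.05, and DESeq2 also called 0. Over all genes tested 0.0259% were called, and 1.55% had groups that did not overlap upward. Log2 differences ran from 0.16 (Hvcn1) to 0.84 (Cybb, SE 0.44, adjusted p = 0.9995), and the groups overlapped for all 7. The approximate 95% interval for Cybb, -0.09 to 1.76, was wide. Within cKO, replicate 2 read 0.849 CPM and replicate 3 read 4.16 CPM.

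With the transgene the deletion went with lower levels of all 7 members. The log2 difference of cKO_SOD1 against cWT_SOD1 was -3.00 for Cybb, -2.33 for Cyba (SE 0.17, edgeR adjusted p = 1.83e-08), -2.0 for Ncf1 (SE 0.20, adjusted p = 3.57e-07) and -2.30 for Ncf4 (SE 0.29, adjusted p = 2.92e-06). It was -1.84 for Rac2 (SE 0.18, adjusted p = 2.17e-07), -1.69 for Hvcn1 (SE 0.13, adjusted p = 2.62e-08) and -2.16 for Nox4 (SE 0.32, adjusted p = 1.64e-05). None of the 7 pairs of groups overlapped, where 24.1% of all genes had groups that did not overlap downward. This comparison shares its cWT_SOD1 libraries with the transgene effect above. The interaction, the transgene effect under the deletion minus that with intact Atg7, was negative and called for all 7, from -1.85 (Hvcn1) to -3.84 (Cybb) on the log2 scale, where 21.8% of all genes were called lower.

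The double mutant cord still stood above the unaffected control for 6 of 7 members, where 6.71% of all genes were called higher. For these 6 the groups did not overlap, where 10.4% of all genes stood apart upward. Cybb was 5.48-fold higher in cKO_SOD1 than in cWT (log2 2.46, SE 0.38, edgeR adjusted p = 3.00e-04), Cyba 2.54-fold (adjusted p = 2.28e-04), Rac2 2.52-fold (adjusted p = 4.40e-04) and Hvcn1 1.69-fold (adjusted p = 0.00174). Ncf1 (1.79-fold, adjusted p = 0.0195) lost its call without cWT replicate 1 or 3 or without cKO_SOD1 replicate 1 (adjusted p from 0.0504 to 0.0662). Ncf4 (2.38-fold, adjusted p = 0.0388) was less stable: leaving out cWT replicate 1, 2 or 3, or replicate 2, 3 or 4 of cKO_SOD1, ended its call, with adjusted p between 0.0569 and 0.119. Nox4 did not pass (log2 0.57, SE 0.39, adjusted p = 0.386).

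**Figure D2:**
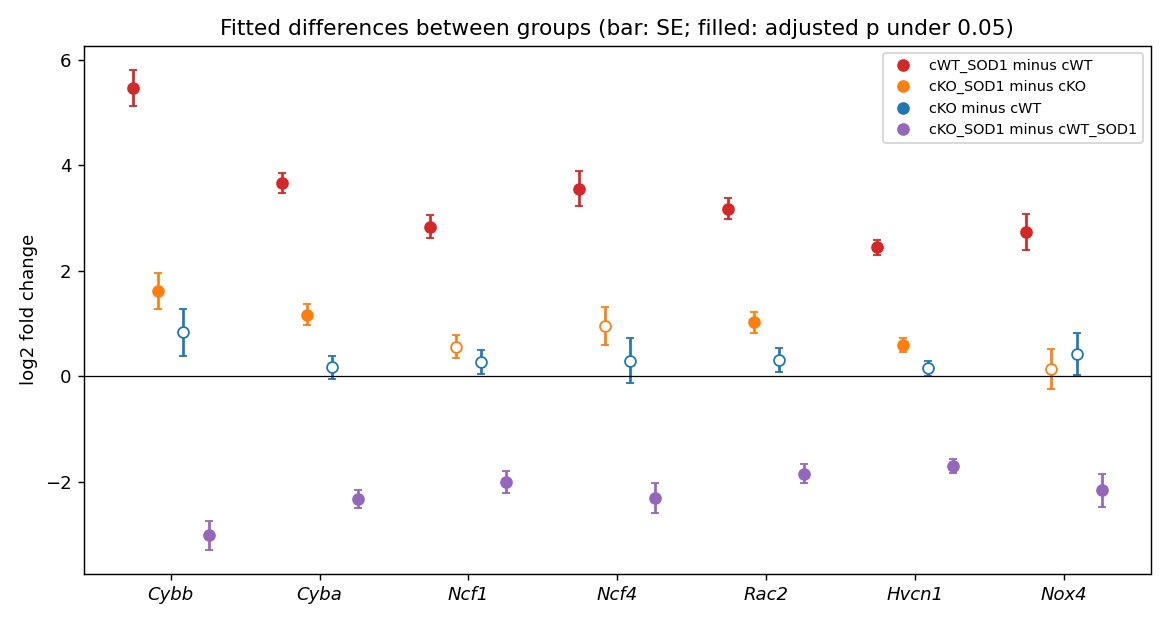
Fitted log2 fold changes (vertical axis) of the 7 genes (horizontal axis) in 4 comparisons, with bars for the SE and filled points for an adjusted p under 0.05. The transgene effect with intact Atg7 is above 2.4 for every gene, the effect under the deletion is highest for Cybb (1.62) and lowest for Nox4 (0.14), and the deletion in transgenic cords is below -1.6 throughout.

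Set against each other per transcript length, as the authors' FPKM allow, the order of levels differed between groups. In cWT Cyba was highest at 7.36 ± 1.07 FPKM (SD, n = 4), followed by Hvcn1 (3.63 ± 0.309) and Ncf1 (3.19 ± 0.588), which overlapped each other. Rac2 (0.730 ± 0.232), Ncf4 (0.552 ± 0.250), Cybb (0.323 ± 0.122) and Nox4 (0.242 ± 0.0450) came last, and each overlapped the next. The order in cKO was the same. In cWT_SOD1 Cyba stood at 96.2 ± 26.5 FPKM, ahead of Ncf1 (23.8 ± 7.60), Hvcn1 (22.1 ± 5.28) and Cybb (14.7 ± 4.75), and Cybb had passed Rac2 (6.92 ± 1.31) and Ncf4 (6.85 ± 3.11) without overlap with Rac2. In cKO_SOD1 Cybb (1.83 ± 0.408 FPKM) overlapped Rac2 (1.93 ± 0.264) and Ncf4 (1.36 ± 0.258). Nox4 was last in all 4 groups, at 1.62 ± 0.808 FPKM in cWT_SOD1 and 0.343 ± 0.167 FPKM in cKO_SOD1.

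The balance of the membrane pair depended on the scale used. The ratio of Cyba to Cybb FPKM was 19.4, 33.1, 28.0 and 17.7 in the 4 cWT mice, 17.6, 40.9, 8.72 and 11.9 in cKO, 6.75, 7.23, 5.57 and 7.0 in cWT_SOD1 and 12.1, 8.63, 9.84 and 11.9 in cKO_SOD1. All cWT_SOD1 mice lay below all others, and the cKO_SOD1 mice overlapped the cKO mice. On log2(FPKM + 0.1) the ratio was 1.46 lower in cWT_SOD1 than in cWT (exact permutation p = 0.0286, two-sided, adjusted p = 0.0440 over 20 tests of 5 ratios in 4 comparisons), and 0.61 higher in cKO_SOD1 than in cWT_SOD1 (the same exact p). A p of 0.0286 is the smallest that 4 against 4 mice allow, and 13 of the 20 tests reached it. In cKO_SOD1 against cKO the difference was -0.44 (exact permutation p = 0.371), and it turned to 0.26 with a pseudocount of 1. That pseudocount, which exceeds Cybb in all mice without the transgene, also brought cWT_SOD1 against cWT to -0.019 (adjusted p = 0.872) and cKO_SOD1 against cWT_SOD1 to 0.19 (adjusted p = 0.308). None of the 13 ratio calls passed on log2(FPKM + 1), with adjusted p from 0.0635 to 0.872. The call of Cyba to Cybb in cWT_SOD1 against cWT was also lost without cWT_SOD1 replicate 1, 3 or 4 (adjusted p = 0.0519). Over the libraries left out in turn the differences were -1.34 to -1.55, and all 5 ratios still stood apart. At the smallest p, the adjusted p is set by how many of the 20 tests reach it. A call lost there does not measure the spread of 1 ratio.

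The ratio of Ncf1 to Cybb FPKM ran from 6.72 to 17.6 in cWT, from 4.8 to 17.2 in cKO, from 1.45 to 1.8 in cWT_SOD1 and from 2.54 to 4.16 in cKO_SOD1. That of Hvcn1 to Cybb ran from 7.19 to 18.2 in cWT, from 4.70 to 24.1 in cKO, from 1.3 to 1.70 in cWT_SOD1 and from 2.47 to 4.31 in cKO_SOD1. Both ratios were lower with the transgene in either Atg7 genotype, each with groups that did not overlap (exact permutation p = 0.0286, adjusted p = 0.0440). With a pseudocount of 1 these calls were lost: under the deletion Ncf1 to Cybb went from -1.04 to -0.36 (adjusted p = 0.156) and Hvcn1 to Cybb from -0.93 to -0.26 (adjusted p = 0.605). Under the deletion both were also lost in 5 of 8 fits without a single library (adjusted p up to 0.132). With intact Atg7 they were lost in 3 of 8 (adjusted p = 0.0519), although their groups did not overlap in any of these 8. For Ncf4 to Cybb, 0.881 to 2.78 in cWT fell to 0.355 to 0.551 in cWT_SOD1 (the same p), whereas cKO (0.876 to 1.83) and cKO_SOD1 (0.620 to 1.02) overlapped (exact permutation p = 0.0571). Rac2 amounted to 0.00259 to 0.00570 of the FPKM of Rac1, the widely expressed paralog, in cWT, and to 0.0242 to 0.0368 in cWT_SOD1. In cKO it was 0.00431 to 0.00726 and in cKO_SOD1 0.00890 to 0.0113, so Rac2 lay below Rac1 in all mice. The low Cybb counts without the transgene widen these ratios in cWT and cKO.

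**Figure D3:**
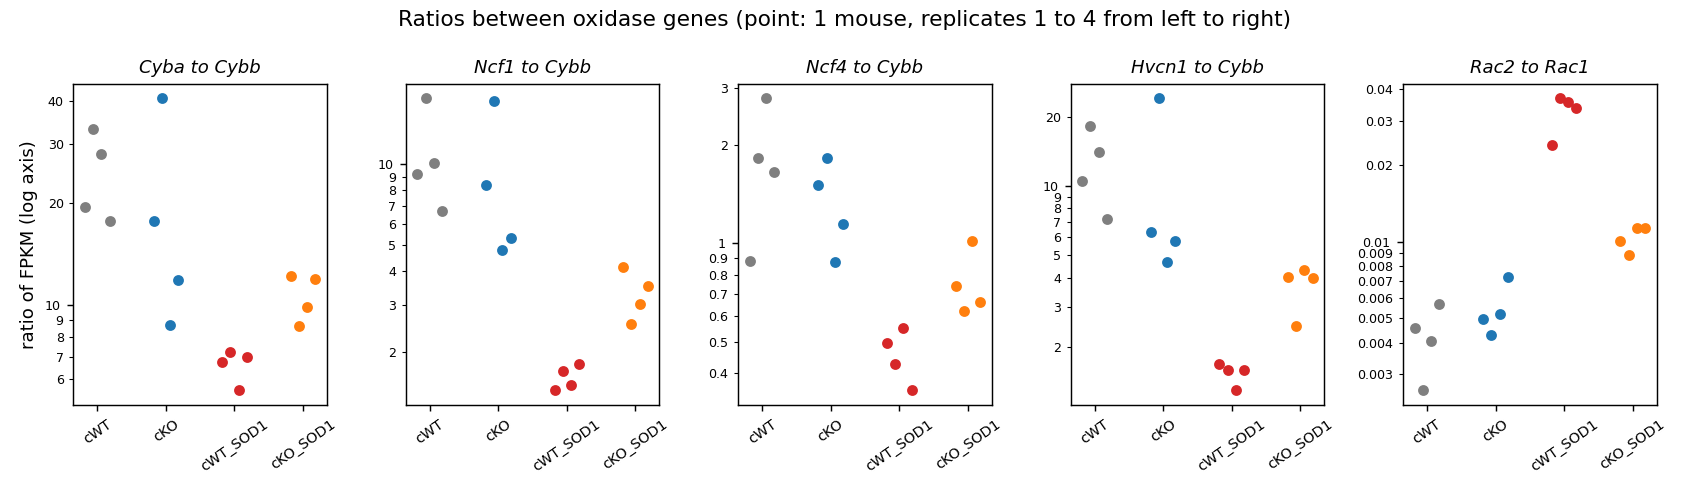
Ratios of FPKM between oxidase genes (vertical axes, log scale, differing by panel) in the 4 groups, with 1 point per mouse. In the panels set against Cybb the cWT_SOD1 mice are lowest (Cyba to Cybb from 5.57 to 7.23), and in the panel of Rac2 to Rac1 they are highest.

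Microglial markers moved with these results. Of 12 markers, 12 were higher in cWT_SOD1 than in cWT and 10 in cKO_SOD1 than in cKO. All 12 were lower in cKO_SOD1 than in cWT_SOD1. Of all genes tested, 33.2%, 4.8% and 29.1% were called in these directions. The summed level of the markers ran from 366 to 402 CPM in cWT and 357 to 479 in cKO. It ran from 1696 to 2522 in cWT_SOD1 and 678 to 742 in cKO_SOD1. Each member was therefore also expressed as its log2 CPM minus the mean log2 CPM of the 12 markers. In cWT_SOD1 against cWT, 4 members stood above the markers without overlap, where 1.74% of all genes tested did so: Cybb by 3.08, Cyba by 1.25, Ncf4 by 1.16 and Rac2 by 0.82 on the log2 scale (exact permutation p = 0.0286 each, adjusted p = 0.0800 over 28 tests). The 12 markers themselves rose by 1.52-fold (P2ry12) to 19.6-fold (Fcrls), with a median log2 difference of 2.41 against 0.01 over all genes tested. A gene that did not move thus falls below the markers, so the share of 1.74% is low by construction. Fcrls (log2 4.29) exceeded Cyba, Ncf4 and Rac2, and Ptprc (log2 3.60) exceeded Ncf4 and Rac2, so standing above the mean is not standing above each marker. Ncf1 (0.40, exact p = 0.143), Hvcn1 (0.04, exact p = 0.686) and Nox4 (0.21, exact p = 0.600) overlapped.

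In cKO_SOD1 against cWT_SOD1, 5 members were lower relative to the markers without overlap, where 1.63% of all genes were. The 5 were Cybb (-1.53), Cyba (-0.85), Ncf4 (-0.78), Rac2 (-0.39) and Hvcn1 (-0.23), with an exact permutation p = 0.0286 each. The median log2 difference of the markers was -1.51 there, so a gene that did not move lies above them and this share is also low by construction. In cKO_SOD1 against cKO only Hvcn1 of the members stood apart, 0.28 lower than the markers. The markers rose there (median log2 0.90), so a gene that did not move lies below them, and 85.1% of all genes were lower. Cybb lay 0.91 higher with overlap (exact permutation p = 0.0857). With Csf1r alone as reference the count of members standing apart in cKO_SOD1 against cKO was 2, and on log2(FPKM + 0.1) it was 0. In cKO against cWT all 7 overlapped, where 0.285% of all genes stood apart upward. None of the 28 tests passed the adjustment, and 10 reached the smallest p. With 10 at that p the adjusted p was 0.0800, so none could pass whatever the size of its difference. The part of microglial number in the member levels was not tested.

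**Figure D4:**
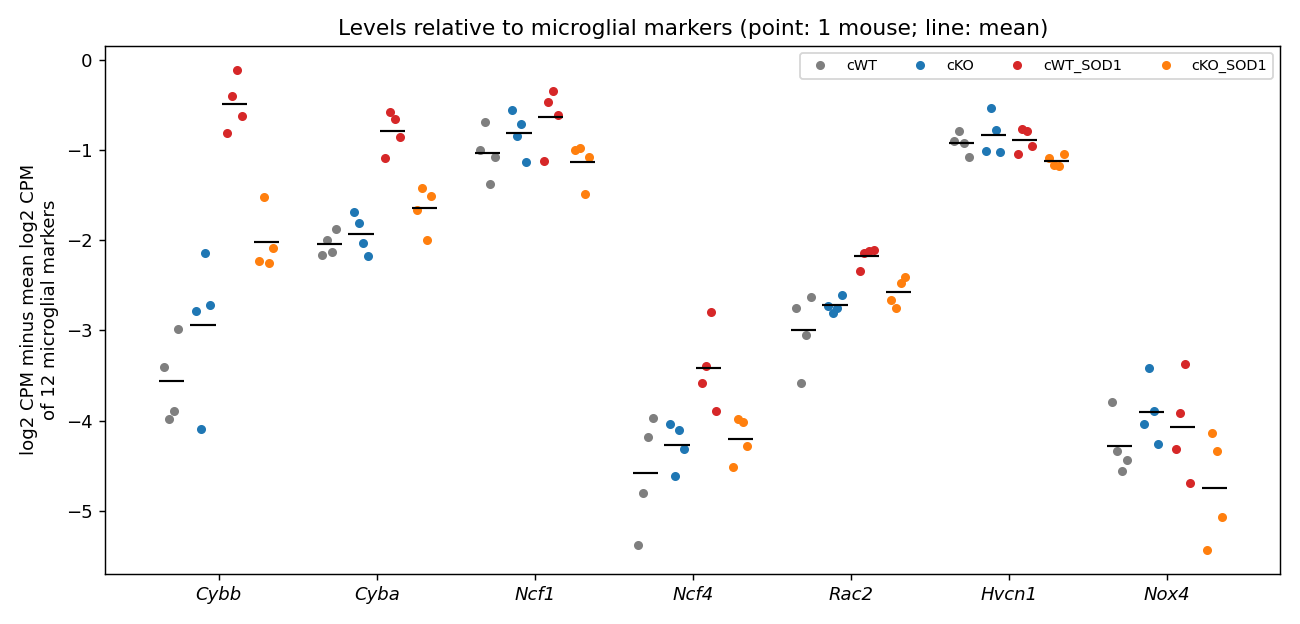
Log2 CPM of each gene minus the mean log2 CPM of 12 microglial markers (vertical axis) for the 7 genes (horizontal axis), with 1 point per mouse coloured by group and a line at the mean. Cybb and Cyba in cWT_SOD1 lie above all other groups, whereas Hvcn1 lies between -1.17 and -0.53 in all mice.

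Markers of other cells that carry the oxidase were also measured. Of 10 neutrophil markers matched, 4 had enough counts for testing (S100a8, S100a9, Ngp and Ltf) and edgeR called none in any comparison, with 0 at an unadjusted p under 0.05. Their summed level was 0.722 to 8.14 CPM in cWT and 2.95 to 16.5 CPM in cWT_SOD1, and Elane, the neutrophil elastase, had at most 2 counts in any library. Of 12 lymphocyte markers 3 were tested and all were higher in cWT_SOD1 than in cWT (Cd4, Cd79b and Lck). Cd4 had 10 to 41 counts per library in cWT_SOD1. In cWT it had 2 to 8, in cKO 1 to 3 and in cKO_SOD1 2 to 7. It entered the test only through the group where it was high, so the count filter partly fixed this outcome. Cd79b had 8 to 51 counts in cWT_SOD1 and 1 to 12 in cWT. The lymphocyte list summed to 1.0 to 2.77 CPM in cWT and 4.86 to 12.6 CPM in cWT_SOD1. Of 8 markers of monocytes and border macrophages 5 of 6 tested were higher (16.8 to 24.8 CPM in cWT, 36.0 to 70.4 CPM in cWT_SOD1). The 6 had a median log2 difference of 1.16. Lyve1, F13a1, Cd163 and Mrc1 were 1.82-fold to 3.32-fold higher, and Ccr2 did not pass. Ms4a7 was 32.5-fold higher, but this fold rested on 3 to 9 counts per library in cWT, against 84 to 217 in cWT_SOD1. For Nox4, endothelial and mural markers summed to 230 to 271 CPM in cWT and 255 to 331 CPM in cWT_SOD1. Of 10, 4 were higher and 2 lower. Of 6 fibroblast markers, 6 were higher (178 to 208 against 309 to 507 CPM). Over all genes tested, 33.2% were called higher and 33.1% lower in this comparison. In cKO_SOD1 against cKO edgeR called 0 lymphocyte, monocyte and border macrophage, endothelial and mural or fibroblast markers. There 4.8% of all genes were called higher and 2.48% lower. The part of these cells in the member levels was not tested.

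Among other genes of the oxidase family, Rac1 rose 1.19-fold with the transgene and intact Atg7 (edgeR adjusted p = 8.37e-05), Noxo1, a homologue of p47phox, rose from 3.64 to 5.41 CPM (adjusted p = 0.00331), and Rap1a, a small GTPase found with the membrane core, did not pass (adjusted p = 0.433). The catalytic relatives Nox1, Nox3, Duox1 and Duox2 had too few counts for testing, with at most 4 counts per library for Nox1 and Duox2.

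Signalling genes that switch the oxidase on went in both directions. With intact Atg7 the transgene raised 15 of 21 and lowered 5, beside 33.2% and 33.1% of all genes. Under the deletion it raised 7 and lowered 1, beside 4.8% and 2.48% of all genes. Led by p-value, Dock2, a Rac activator of blood cells, rose from 6.80 to 68.6 CPM (edgeR adjusted p = 1.10e-11), the integrin subunit Itgb2 from 8.14 to 109 CPM (adjusted p = 1.17e-10) and Vav1, a Rac activator of blood cells, from 4.13 to 33.9 CPM (adjusted p = 4.52e-10). The 5 that fell were the Rac activators Tiam1 (40.9 to 21.9 CPM) and Vav3 (23.1 to 15.5 CPM) and the kinases Pak1 (463 to 295 CPM), Prkcb (325 to 266 CPM) and Akt1 (188 to 157 CPM). In cKO_SOD1 against cWT_SOD1, 15 of the 21 were lower and 5 higher, beside 29.1% of all genes in each direction.

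Genes that supply NADPH were also split. With intact Atg7 the transgene raised 6 of 10 and lowered 2, at a median log2 difference of 0.29, beside 33.2% and 33.1% of all genes. Under the deletion edgeR called none of the 10 (1 at an unadjusted p under 0.05), beside 4.8% and 2.48% of all genes. G6pdx, the entry enzyme of the pentose phosphate pathway, rose from 75.3 to 106 CPM (edgeR adjusted p = 6.62e-08) and the mitochondrial dehydrogenase Idh2 from 30.2 to 70.1 CPM (adjusted p = 8.42e-07). The transketolase Tkt fell from 229 to 176 CPM (adjusted p = 1.41e-05), and the malic enzyme Me2 fell from 34.0 to 29.2 CPM (adjusted p = 0.0119).

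Of 16 genes that remove superoxide and peroxide, 8 rose and 2 fell with intact Atg7, beside 33.2% and 33.1% of all genes. Under the deletion 1 rose, beside 4.8% of all genes. Prdx6, a peroxiredoxin whose reads may be shared with a near-identical copy, rose from 274 to 1699 CPM (edgeR adjusted p = 2.19e-12) and under the deletion from 271 to 456 CPM (adjusted p = 6.98e-05). Gpx1, a glutathione peroxidase, rose from 56.9 to 136 CPM with intact Atg7 (adjusted p = 3.41e-08). Sod2, the mitochondrial superoxide dismutase, fell from 196 to 111 CPM (adjusted p = 1.15e-08) and Prdx5 fell from 178 to 135 CPM (adjusted p = 1.75e-05). Mouse Sod1 did not pass (121 to 114 CPM, adjusted p = 0.222).

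Likeness of pattern was measured as the root mean square difference between log2 CPM profiles centred over the 16 libraries, and is a description. Closest to Cybb were Ly9 (0.31), Lyz2 (0.31) and Cd109 (0.33). Closest to Cyba were Ctss, St14 and Grn (0.17 each). Closest to Ncf1 were Inpp5d (0.17), Dnase2a (0.18) and Maff (0.18). For Ncf4 they were Parvg (0.28), S100a6 (0.32) and Cd300a (0.32). For Rac2 they were Naip2 (0.18), Ctsh (0.18) and Emr1 (0.19), and for Hvcn1 Golm1 (0.11), Tgfbr1 (0.12) and Clic1 (0.13). Nox4 was closest to Iqgap2 (0.32), Fstl3 (0.33) and Ms4a6b (0.33). Among the members themselves Ncf1 and Hvcn1 were the closest pair (0.26), followed by Cyba and Rac2 (0.35), and Cybb and Nox4 the most distant (1.32). No member was among the 3 genes nearest to another member.

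The gene for PU.1, Spi1, listed as Sfpi1 in the files, moved from 3.30 to 21 CPM with the transgene and intact Atg7 (6.37-fold, edgeR adjusted p = 2.31e-09) and from 2.83 to 6.81 CPM under the deletion (2.39-fold, adjusted p = 7.00e-04). It was 3.08-fold lower in cKO_SOD1 than in cWT_SOD1 (adjusted p = 5.78e-07). It is also 1 of the 12 microglial markers.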

How the data were processed

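Per the labels' protocols, poly-A RNA of flash-frozen lumbar cords was made into Illumina TruSeq libraries. The submitters' processing notes list mm9 and the tools Cufflinks 2.0.2, TopHat2 2.0.4 and bcl2fastq 1.8.4. For the counts, neither tool nor strand setting is given in the sources used here. The authors deposited raw counts per gene symbol and FPKM values (per transcript length and library size); their 2 FPKM sources held the same values in all 379184 entries. Gene positions are the mm9 loci of the deposited FPKM tables.

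Counts of all 16 libraries entered 1 edgeR 4.0.16 quasi-likelihood fit (R 4.3.3, TMM, filterByExpr, 15426 of 23284 symbols kept, 1 coefficient per group), with Benjamini-Hochberg adjustment over all genes tested and calls at an adjusted p under 0.05. An SE is the fitted log2 difference over the root of F, and 95% intervals are built from it. The procedure was tested on simulated counts with few changed genes and the same spread in every group. That setting is simpler than these data. Marker levels used log2 CPM with a prior count of 0.5, ratios log2(FPKM + 0.1), and likeness a prior count of 2. Ratios and marker-relative levels were compared by exact permutation tests, two-sided, with 70 ways to divide 8 libraries into groups of 4.

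Named are the 7 members, Atg7 and Sod1, from each pathway list the 3 genes with the smallest p in cWT_SOD1 against cWT and those called against the majority, and the 3 genes most like each member; Spi1, Noxo1, Rap1a, tested markers and genes too low for testing were added after their values were seen. A gene of the oxidase family list is not reported here. The members, lists and tests were chosen with earlier results of these data known. The marker and pathway lists held 130 entries, of which 128 were found in the table (2 under older symbols). The main fit did not treat the animals as paired by replicate number. Replicates are separate animals per the series' design text, and no 2 libraries of a group matched within sampling noise. The alternatives were RLE scaling, DESeq2 1.42.0, no filter, only the libraries compared, a replicate block, a sex term, limma-voom weighted by group and limma 3.58.1 on FPKM, and leaving out each library.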

Additional observations from a re-analysis of the deposited data

Results flagged for a closer look

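Among 28 sets of 4 mice (7 members in 4 groups), 2 had a mouse far from the other 3, and chance gives about 1 in 20. Cybb stood at 11.0 CPM in cKO_SOD1 replicate 2, and the other 3 mice of that group were at 7.20 to 7.66 CPM. Ncf4 stood at 0.584 CPM (11 counts) in cKO replicate 2, below 1.01 to 1.07 CPM in the other 3.

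The transgene effect differed between the Atg7 genotypes for all 7 members by the interaction term of the edgeR fit. All 7 were called lower, where 21.8% of all genes tested were. So were 11 of 12 microglial, 5 of 6 astrocyte and 5 of 6 fibroblast markers, whereas 4 of 6 neuronal markers were called higher. On the log2 scale the difference (effect under the deletion minus effect with intact Atg7) was -3.84 for Cybb (SE 0.51, adjusted p = 2.21e-05), -2.50 for Cyba (SE 0.27, adjusted p = 5.02e-06) and -2.28 for Ncf1 (SE 0.30, adjusted p = 2.28e-05). It was -2.60 for Ncf4 (SE 0.51, adjusted p = 5.43e-04), -2.15 for Rac2 (SE 0.29, adjusted p = 2.46e-05), -1.85 for Hvcn1 (SE 0.19, adjusted p = 3.49e-06) and -2.59 for Nox4 (SE 0.51, adjusted p = 5.62e-04). All 4 groups enter this term, so it shares its libraries with every other comparison.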

How the results depend on the processing

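The member calls of cWT_SOD1 against cWT, cKO_SOD1 against cWT_SOD1 and the interaction (7 each) and of cKO against cWT (0) were the same under every alternative run, including each left-out library. In cKO_SOD1 against cKO the count of 4 ran from 3 to 5 without single libraries. There the fit of only the 8 libraries compared also called Ncf1 (edgeR adjusted p = 0.00748) and Ncf4 (edgeR adjusted p = 0.0116). In cKO_SOD1 against cWT the count of 6 ran from 4 to 6 without single libraries. Ncf4 also lost its call in cKO_SOD1 against cWT on log2(FPKM + 1) (limma adjusted p = 0.0761) and on unfiltered log2(FPKM + 0.1) (limma adjusted p = 0.0622). The call of lower Atg7 in cWT_SOD1 than in cWT was lost on unfiltered log2(FPKM + 0.1) (limma adjusted p = 0.0892). With the replicate block 7, 4, 0, 7, 6 and 7 members were called in the 6 comparisons, and no call of a member changed. Deviations of same-numbered libraries correlated at -0.25 to 0.31, over 0.1 in 11 of 24 pairs. Those of different-numbered libraries correlated at -0.34 to 0.28, over 0.1 in 22 of 72 pairs. Of 16 libraries, 7 correlated best with a library of their own number. These values do not settle whether the numbers pair the animals.

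Over all genes, the count of 1123 in cKO_SOD1 against cKO was 2480 with only the 8 libraries, 2264 with limma-voom weighted by group and 685 without cKO replicate 2. The count of 4 in cKO against cWT was 18 with DESeq2, 9 with only the 8 libraries, 10 with limma-voom, 9 without cWT_SOD1 replicate 1 and 2 without cKO replicate 2.

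Relative to microglial markers, the members standing apart in cKO_SOD1 against cKO numbered 1, but 2 with Csf1r alone, 0 on log2(FPKM + 0.1) and 1 to 3 without single libraries; in cKO against cWT they numbered 0 to 1. Ratios standing apart in cKO_SOD1 against cKO numbered 3, but 1 on log2(FPKM + 1), where Cyba to Cybb turned to 0.26, and in cKO against cWT 0 to 1 without single libraries. Signs of small, uncalled values turned as follows. Without single libraries, Nox4 in cKO_SOD1 against cKO ran from -0.042 to 0.317 (-0.013 without cKO_SOD1 replicate 3) and Atg7 from -0.085 to 0.073. Relative to markers, leaving out libraries moved Hvcn1 from -0.016 to 0.088 and Nox4 from -0.025 to 0.414 in cWT_SOD1 against cWT, Ncf4 from -0.046 to 0.174 in cKO_SOD1 against cKO, and Hvcn1 from -0.010 to 0.153 in cKO against cWT. On FPKM, Nox4 in cWT_SOD1 against cWT was -0.18. With Csf1r alone, Cyba was -0.018 and Hvcn1 -0.042 in cKO against cWT. The cause was not tested. Counts of 7 to 26 per library limit Ncf4 and Nox4 without the transgene.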
